A study of Rattus norvegicus with 18 samples.

Results

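G-quadruplexes are stacked planes of guanines that form in guanine-rich DNA and RNA, and a set of helicases and binding proteins recognises, unwinds or stabilises them. The set described here holds 34 genes for such proteins, chosen by symbol from what the proteins are known to bind. The rule uses no expression value, but earlier results of these data were known when the set was chosen. The 34 symbols match 35 gene models of the 33898 in the deposited count table, because Atrx is listed as a long model and a short one. All 35 models passed the filter on low counts and were tested among 14184 models in all.

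The RNA came from cultured nucleus pulposus cells (from the soft centre of the spinal disc) of Sprague Dawley rats aged 8 weeks. Cells were plated for 24 hours and then exposed for 24 hours to 1 of 3 quadruplex-stabilising ligands. PDS (pyridostatin) has its own controls, named PDS control, and Phen-DC3 has controls named Phen-DC3 control. Braco-19, an acridine, is compared with the libraries labelled control, which name no compound and were paired with Braco-19 by elimination. Each of the 6 groups has 3 libraries. No genetic change is named for any group, and the sources used here give neither the doses nor the vehicle of the controls. The design text speaks of biological repeats without naming separate cultures or animals, so the p-values measure the spread between these libraries, which may be technical.

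In DNA, a quadruplex in the way of a replication fork is unwound by helicases such as PIF1, BLM, WRN and FANCJ, the product of Brip1. ATRX and RIF1 act on chromatin and on the timing of replication at such sequences, and SP1 and MAZ bind guanine-rich promoters. In RNA, DHX36 and DHX9 unwind quadruplexes, while hnRNPs, nucleolin (Ncl), CNBP and FMRP, the product of Fmr1, bind them and affect splicing, stability and translation. Stabilising compounds compete with these proteins for the same structures.

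Promoter sequences are shown because guanine-rich promoters are the DNA that these compounds and several of the encoded proteins are known to bind. RefSeq promoter windows (build GRCr8) were matched for 30 of the 34 symbols, in 33 windows, and no window was matched for Blm, Ewsr1, Taf15 and Wrn. In the 250 bases before the start, searched on both strands, 9 of the 33 windows held 4 runs of at least 3 guanines separated by 1 to 7 bases, the usual sequence pattern of a quadruplex. That is 27.3% of the members' windows, beside 14.9% of 33469 windows in all. Here and below, the windows in all were not limited to genes tested in these libraries, whereas every member was tested. A comparison with windows of tested genes alone was not made. The members' windows had a median GC content of 60%, against 51.2% for all windows. The 9 windows belong to 7 genes, and 1 stretch from each of 6 is printed with its guanine runs in capitals, on the strand that carries the guanines and with its sense relative to the gene.
Maz, chr1:191065059-191065097, plus strand, antisense: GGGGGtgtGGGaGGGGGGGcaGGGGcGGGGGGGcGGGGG
Sp1, chr7:135420028-135420049, minus strand, antisense: GGGGGGGttGGGGGGGGccGGG
Rev1, chr9:47847361-47847389, minus strand, sense: GGGcGGGGccGGGGtcgcctcGGGccGGG
Ncl, chr9:94456250-94456278, plus strand, antisense: GGGGGaGGGcGGGGctcttaGGGGcaGGG
Ddx5, chr10:92232043-92232069, minus strand, sense: GGGGaaggaGGGGtagaaaaGGGaGGG
Parp1, chr13:94839286-94839306, minus strand, antisense: GGGaaGGGacaGGGGcGGGGG

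The Maz promoter held 4 such stretches, whereas the stretch at Sp1 lies 1 to 22 bases before the start. GGGCGG, the core of the box that SP1 binds, occurred on either strand in 20 of the 33 windows (60.6%), beside 30.5% of all windows. GGGAGGG, the core of a MAZ site, occurred in 10 (30.3%), beside 18.7% of all windows. The 2 motifs can lie inside the quadruplex pattern and so overlap it. Among the 5 members that fell with Phen-DC3 (below), Sp1 alone had the quadruplex pattern in this window. The windows of Rif1, which had the lowest fold change of the 5, and of Sp1 are given in full. Capitals mark GGGCGG and GGGAGGG on either strand and, for Sp1, the quadruplex pattern at the 3′ end.
Rif1, chr3:56963604-56963853, plus strand: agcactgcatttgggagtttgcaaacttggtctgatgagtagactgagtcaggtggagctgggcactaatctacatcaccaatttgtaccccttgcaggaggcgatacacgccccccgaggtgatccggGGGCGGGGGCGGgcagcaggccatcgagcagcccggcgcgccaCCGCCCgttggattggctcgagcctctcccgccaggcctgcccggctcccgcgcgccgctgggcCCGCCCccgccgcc
Sp1, chr7:135419800-135420049, plus strand: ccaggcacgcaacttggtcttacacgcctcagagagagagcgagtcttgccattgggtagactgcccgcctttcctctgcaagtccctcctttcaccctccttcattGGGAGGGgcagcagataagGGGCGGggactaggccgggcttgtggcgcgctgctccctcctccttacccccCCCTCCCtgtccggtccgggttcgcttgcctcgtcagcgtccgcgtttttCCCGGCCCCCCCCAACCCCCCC

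Rif1 holds 4 copies of GGGCGG and no quadruplex pattern in these 250 bases. A match describes letters only, and its absence says nothing of more distant sequence.

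Library totals ran from 15715121 to 18369443 counts. Of the markers of notochordal nucleus pulposus cells, Tbxt, Krt19 and Shh had no count in any library. Krt8 and Cd24 were among the 17 of 22 nucleus pulposus and cartilage markers that passed the filter on low counts. Pax1 (76.1 to 111.3 CPM, read counts scaled to the library total, as group means) and Foxf1 (35.1 to 44.2) were present. The sum of the 22 nucleus pulposus and cartilage markers was 874 to 974 CPM across the libraries, and that of the fibroblast and annulus list was 2786 to 7669. The defining leukocyte and endothelial genes Ptprc and Cdh5 had no count in any group; the summed leukocyte list was 34.6 to 121.9 CPM, mostly Cd14, and the endothelial list 8.15 to 33.8. The control and Braco-19 libraries stood apart from the other 12. Genes longer than 5000 bases took 23.3 to 25.4% of their counts. That share was 7.98 to 9.08% in the PDS and PDS control libraries, 9.26 to 10.7% in the Phen-DC3 controls and, after Phen-DC3, 7.42 to 8.43%. Each comparison is therefore given also after every library was corrected for its smooth trend with gene length, which sets a gene against genes of like length.

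The members spanned a wide range of abundance. Per kilobase of gene length and averaged over the 18 libraries, Npm1, which encodes a nucleolar protein, was highest at 366 CPM per kilobase. It was followed by Hnrnpa2b1 (359), Hnrnpa1 (334), Cnbp (268), Hnrnpk (258), Ddx5 (229) and Ncl (224). Reads of Npm1, Hnrnpa1, Hnrnpf and Hnrnph1 may be shared with near-identical gene copies, so their levels are uncertain. Of the 8 DNA helicases, Ercc3, a subunit of the transcription and repair factor TFIIH, was highest at 22.6 CPM per kilobase and the other 7 were lower: Rtel1, which protects telomeres, was at 8.96 CPM per kilobase, Ddx11 at 4.03, Ercc2 at 3.84, Blm at 3.67, Wrn at 3.66, Brip1 at 2.86 and Pif1 at 2.23. Rif1 (2.84), Mutyh (2.65), Ewsr1 (2.55), Atrx (2.11) and Taf15 (2.05) were as low, and from Rtel1 down neighbours in this order overlapped in their ranges over libraries. These means mix groups that differ widely for some members. Rif1 averaged 0.42 to 0.90 in the PDS, Phen-DC3 and their control groups and 6.46 to 8.22 in the control and Braco-19 groups. Atrx averaged 0.64 to 1.31 and 4.16 to 4.97.

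**Figure D1:**
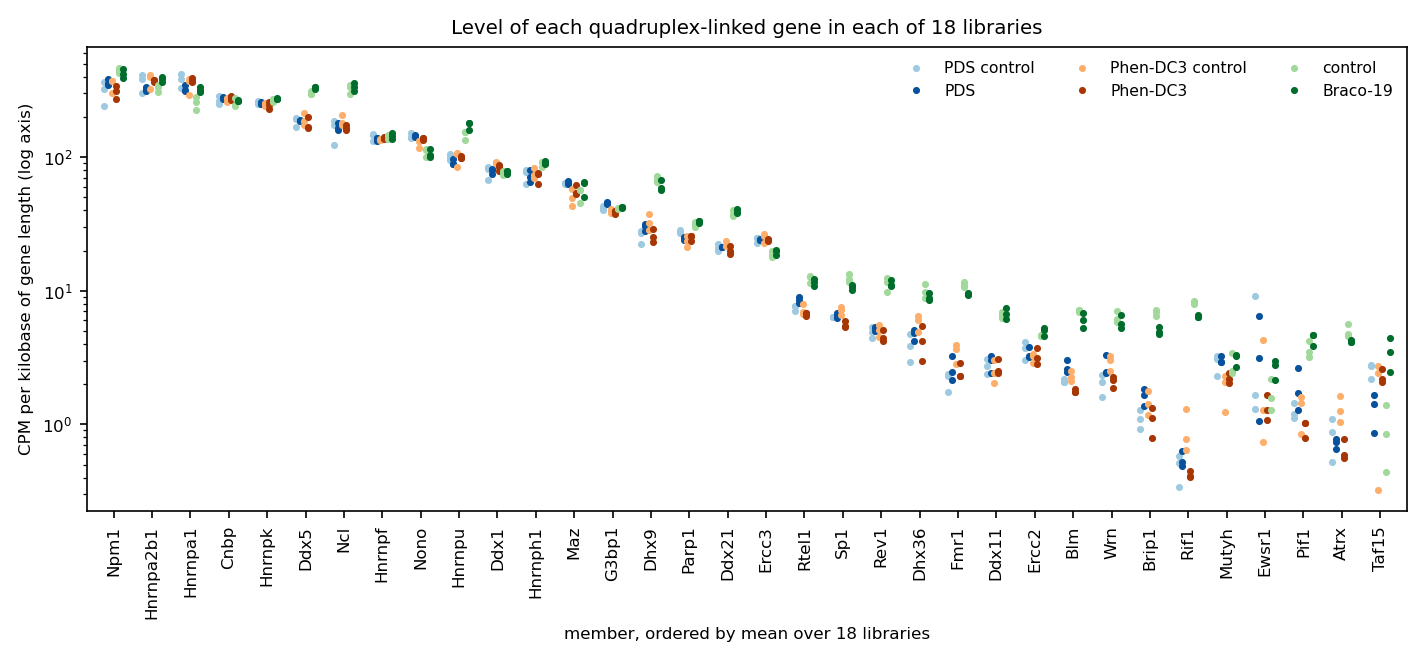
Levels of the members per kilobase of gene length (CPM per kilobase, log axis), ordered by mean over 18 libraries, with 1 point per library coloured by group. Npm1 (366) is at the top and Taf15 (2.05) at the bottom of the full models, and the short Atrx model is left out.

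Npm1, the most abundant, was at 519, 386 and 584 CPM in the PDS controls and at 553, 573 and 618 with PDS. It was at 600, 595 and 488 in the Phen-DC3 controls and at 500, 436 and 546 with Phen-DC3. The controls of Braco-19 gave 716, 685 and 745, and Braco-19 gave 732, 669 and 627. All 3 pairs of groups overlapped, and the 6 libraries of the last pair lay above the other 12. At the other end, the short Atrx model (471 bases) had 0 counts in the PDS control, PDS and Phen-DC3 control libraries and 1 count in Phen-DC3 replicate 1. It had 4, 25 and 1 counts in the controls of Braco-19 and 1, 16 and 13 with Braco-19. It takes too few counts for a fold change.

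Phen-DC3 was the compound for which members passed the test, and all that did were lower. By edgeR's quasi-likelihood test with Benjamini-Hochberg adjustment over all tested genes, 5 of 35 models fell (14.3%), against a background of 5.82% of all genes called lower and 8.01% called in either direction. They were Rif1, a regulator of replication timing, Atrx, a chromatin remodeller, the transcription factor Sp1, the helicase Dhx9 and Fmr1, the translational regulator lost in fragile X syndrome. The median log2 change over the 35 models was -0.09, beside -0.01 over all genes. After the length correction 0 of 35 passed (9 at an unadjusted p under 0.05), when 0.331% of all genes did. Among libraries left out in turn, the count without the correction ran from 0 to 9, with no share of all genes given for these fits. It was 0 without Phen-DC3 control replicate 1, Phen-DC3 replicate 1 or Phen-DC3 replicate 2, and 1 without Phen-DC3 control replicate 2. It was 7 when Phen-DC3 control replicate 3 was dropped and 9 when Phen-DC3 replicate 3 was dropped.

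Rif1 (ENSRNOG00000054901, chromosome 3, 37599728 to 37647631 in the deposited table, whose build no source used here names) was at 5.61, 9.39 and 4.67 CPM in the Phen-DC3 controls. It was at 3.27, 2.99 and 2.91 CPM with Phen-DC3. Every treated library was below every control, the controls differed 2.01-fold among themselves, and control replicate 2 was the highest. The log2 change was -1.10 ± 0.21 (SE, n = 3 and 3; edgeR adjusted p = 0.0112). Relative to genes of like length it was -0.74 (edgeR adjusted p = 0.0873). The adjusted p ran from 7.26e-05 to 0.303 over the alternatives tried.

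Atrx (ENSRNOG00000056703, chromosome X, 76820329 to 76979115, same table) was at 15.7, 20.4 and 13.0 CPM in these controls and at 7.04, 7.38 and 9.74 with Phen-DC3. The groups did not overlap, which held for 7 of the 35 models and for 22.1% of all genes. The log2 change was -1.02 ± 0.21 (SE; edgeR adjusted p = 0.0155), and -0.48 (edgeR adjusted p = 0.19) relative to genes of like length. Atrx is 12500 bases long and only 53 tested genes are longer, so its correction rests on few genes.

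Sp1 (ENSRNOG00000014084, chromosome 7, 144014173 to 144044629) was at 57.8, 55.2 and 50.4 CPM in the controls and at 42.3, 41.3 and 45.6 with Phen-DC3, also without overlap. Its log2 change of -0.34 ± 0.08 (SE; edgeR adjusted p = 0.016) turned to 0.04 (edgeR adjusted p = 0.801) relative to genes of like length. Sp1 is 7712 bases long in the table, and its difference was of the size shown by genes of its length.

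Dhx9 (ENSRNOG00000002735, chromosome 13, 70885504 to 70922245), a helicase of RNA and of RNA-DNA hybrids, was at 158, 136 and 119 CPM in the controls and at 97.3, 105 and 122 with Phen-DC3. Fmr1 (ENSRNOG00000057464, chromosome X, 154684935 to 154722314) was at 16.7, 15.8 and 12.1 CPM and at 9.94, 9.78 and 12.2. In both, 1 treated library, replicate 3, lay above the lowest control. The log2 changes were -0.35 ± 0.11 (SE; edgeR adjusted p = 0.0484) for Dhx9 and -0.48 ± 0.15 (SE; edgeR adjusted p = 0.0491) for Fmr1. Relative to genes of like length they were -0.19 and -0.31 (edgeR adjusted p = 0.232 and 0.204).

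The remaining models did not pass with Phen-DC3, and those nearest to the threshold were long as well. Wrn, the helicase lost in Werner syndrome, was at -0.49 (log2; edgeR adjusted p = 0.0511) and Blm, lost in Bloom syndrome, at -0.36 (0.0565). Dhx36, the main RNA quadruplex helicase, was at -0.46 ± 0.19 (0.131), and Brip1 at -0.44 ± 0.18 (0.113). None of the 8 DNA helicases passed (median -0.23), nor did any of the 6 hnRNPs (median 0.00, range -0.08 to 0.11). In the nucleolar and zinc finger group, Npm1 was at -0.18, Ncl at -0.17 and Cnbp at 0.05. The stress granule protein G3bp1, at 6549 bases one of the longest members, was at -0.02, which relative to genes of like length became 0.30 (edgeR adjusted p = 0.0594).

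**Figure D2:**
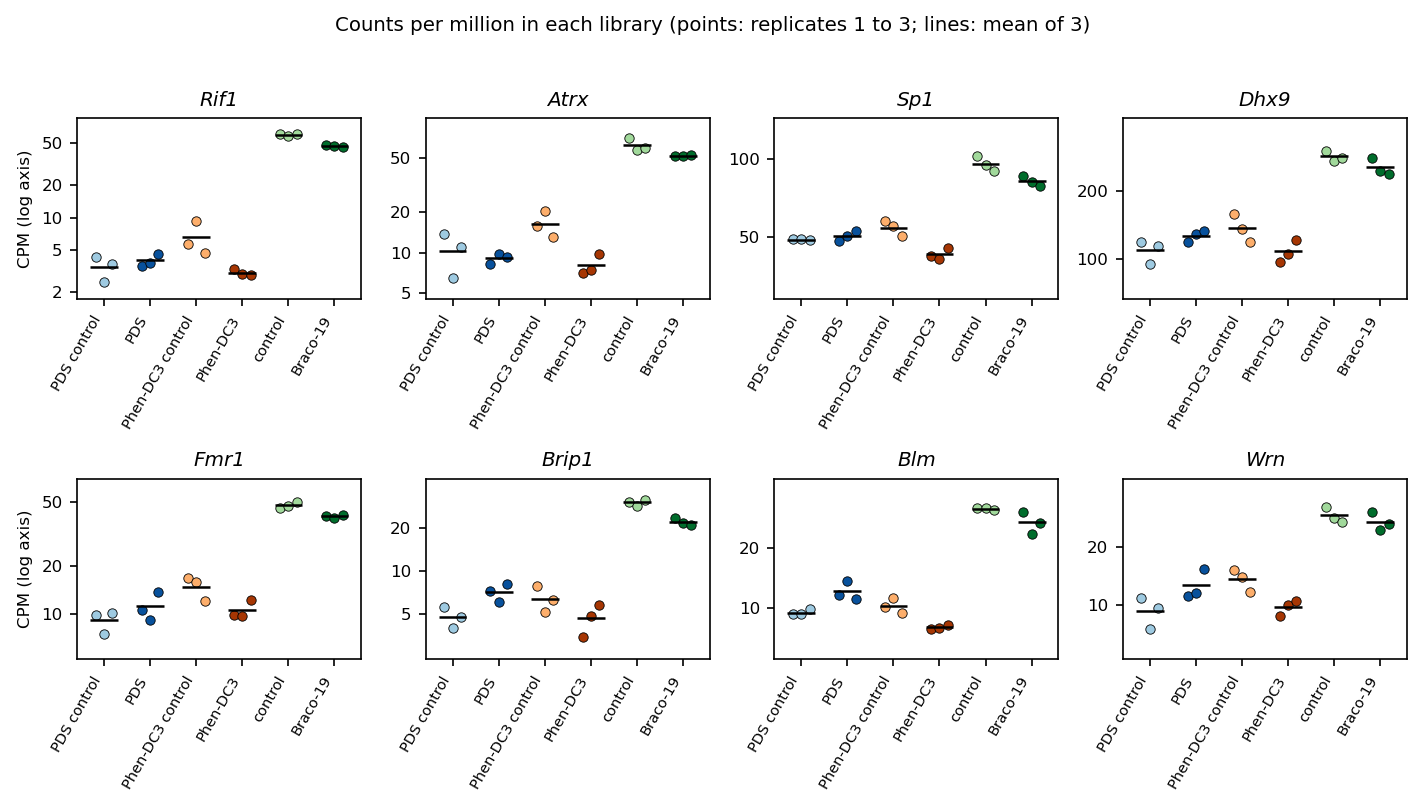
Level of selected members in each of the 18 libraries (CPM, log axis), 1 point per library and a bar at each group's mean. Rif1 is at 2.91 to 3.27 with Phen-DC3 and at 4.67 to 9.39 in its controls, and at 46.2 to 60.7 in the Braco-19 and control libraries.

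All 5 members that fell with Phen-DC3 are longer than 4000 bases. The 13 members above that length had a median log2 change of -0.36 and the 22 shorter ones 0.02, beside -0.24 and 0.05 for all genes split in the same way. Of the genes longer than 4000 bases, 21.9% were called lower with Phen-DC3, and 5 of the 13 long members were. Across the 35 models Spearman's rho between length and log2 change was -0.59, and -0.44 across all tested genes. These are descriptions across genes, which share the libraries and are not independent replicates. Gene length, the share of counts in long genes and Phen-DC3 moved together in these libraries and cannot be told apart by the design.

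**Figure D3:**
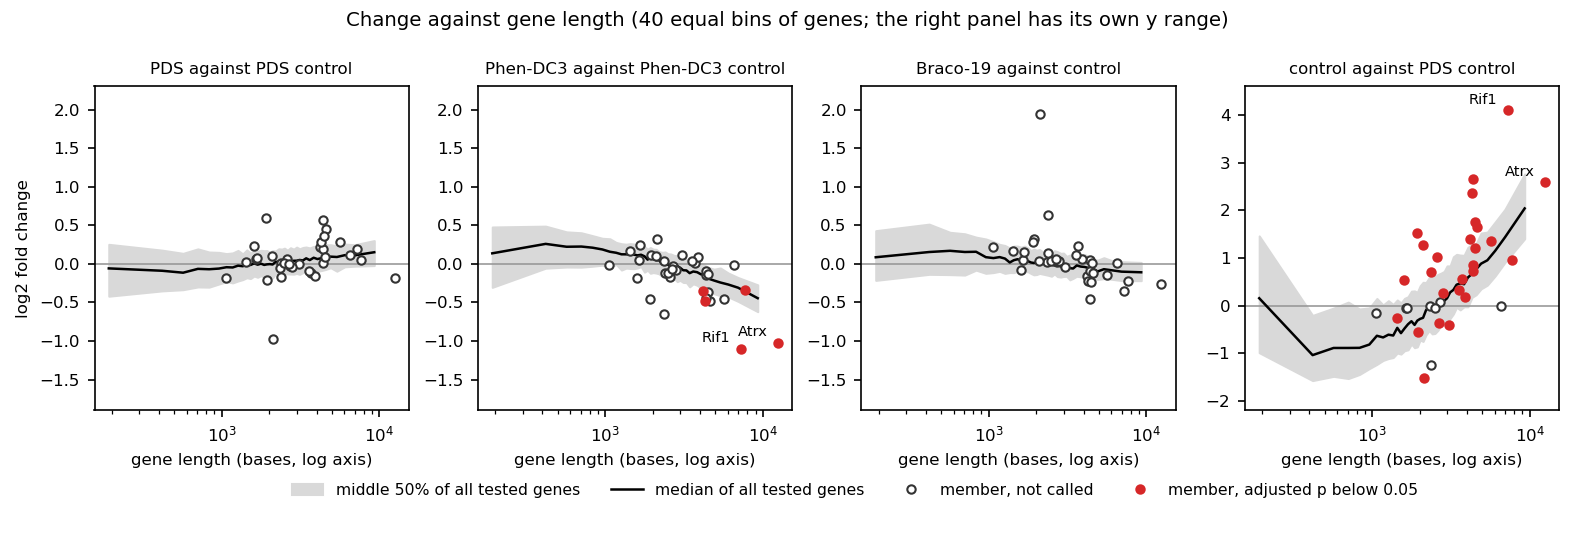
Log2 change of each member (points, filled where edgeR's adjusted p is below 0.05) against gene length (bases, log axis) in 4 comparisons, with the median and the middle 50% of all tested genes in 40 bins of length. With Phen-DC3 the 5 called members lie on the falling limb of the trend, Sp1 (-0.34) near its median, with Rif1 (-1.10) and Atrx (-1.02) lowest and with Fmr1 (-0.48) and Dhx9 (-0.35) also under the middle 50% of genes of their length. The short Atrx model is left out.

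With PDS, 0 of 35 models passed (7 at an unadjusted p under 0.05), in a comparison in which 8.09% of all genes did. DESeq2 called 1, Brip1, with its share of all genes not given. The median was 0.03 over the members and 0.02 over all genes. After the length correction the count was again 0 (6 at an unadjusted p under 0.05; 8.62% of all genes called). The members nearest to the threshold were 3 DNA helicases, each higher with PDS in all 3 libraries than in any control.

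Brip1, the FANCJ helicase that works with BRCA1, was at 5.56, 4.01 and 4.79 CPM in the PDS controls and at 7.23, 6.01 and 8.11 with PDS. Blm was at 9.25, 9.25 and 9.82 and at 11.6, 13.6 and 11.1. Wrn was at 10.8, 7.42 and 9.64 and at 11.1, 11.5 and 15.3. None of these groups overlapped. That held for 7 of the 35 models and for 33.3% of all genes. The log2 differences were 0.57 ± 0.18 for Brip1, 0.36 ± 0.11 for Blm and 0.45 ± 0.15 for Wrn (SE; edgeR adjusted p = 0.0518, 0.0594 and 0.0773).

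Pif1 was at 0.59 ± 0.26 with PDS (edgeR adjusted p = 0.171) and Rtel1 at 0.19 (0.188), while Ddx11 (0.10), Ercc3 (-0.00) and Ercc2 (-0.09) were nearer to 0. The 5 members that fell with Phen-DC3 were at 0.20 (Rif1), -0.19 (Atrx), 0.05 (Sp1), 0.21 (Dhx9) and 0.29 (Fmr1) with PDS, none past the threshold. The 6 hnRNPs ranged from -0.21 to -0.02. Taf15, an RNA-binding protein of the FET family, was at 4.65, 5.83 and 5.87 CPM in the PDS controls and at 3.50, 3.01 and 1.82 with PDS. Those groups did not overlap, and the log2 difference was -0.97 ± 0.53 (SE; edgeR adjusted p = 0.287).

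In the same libraries 11 of 24 tested genes of S phase and mitosis rose with PDS, with a median log2 change of 0.33 over the list. Their summed level was 2428 to 2448 CPM with PDS and 1972 to 2046 in its controls. The part of cell proliferation in the helicase values was not tested. In bulk RNA, more cells that express a gene and more RNA per cell cannot be told apart.

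**Figure D4:**
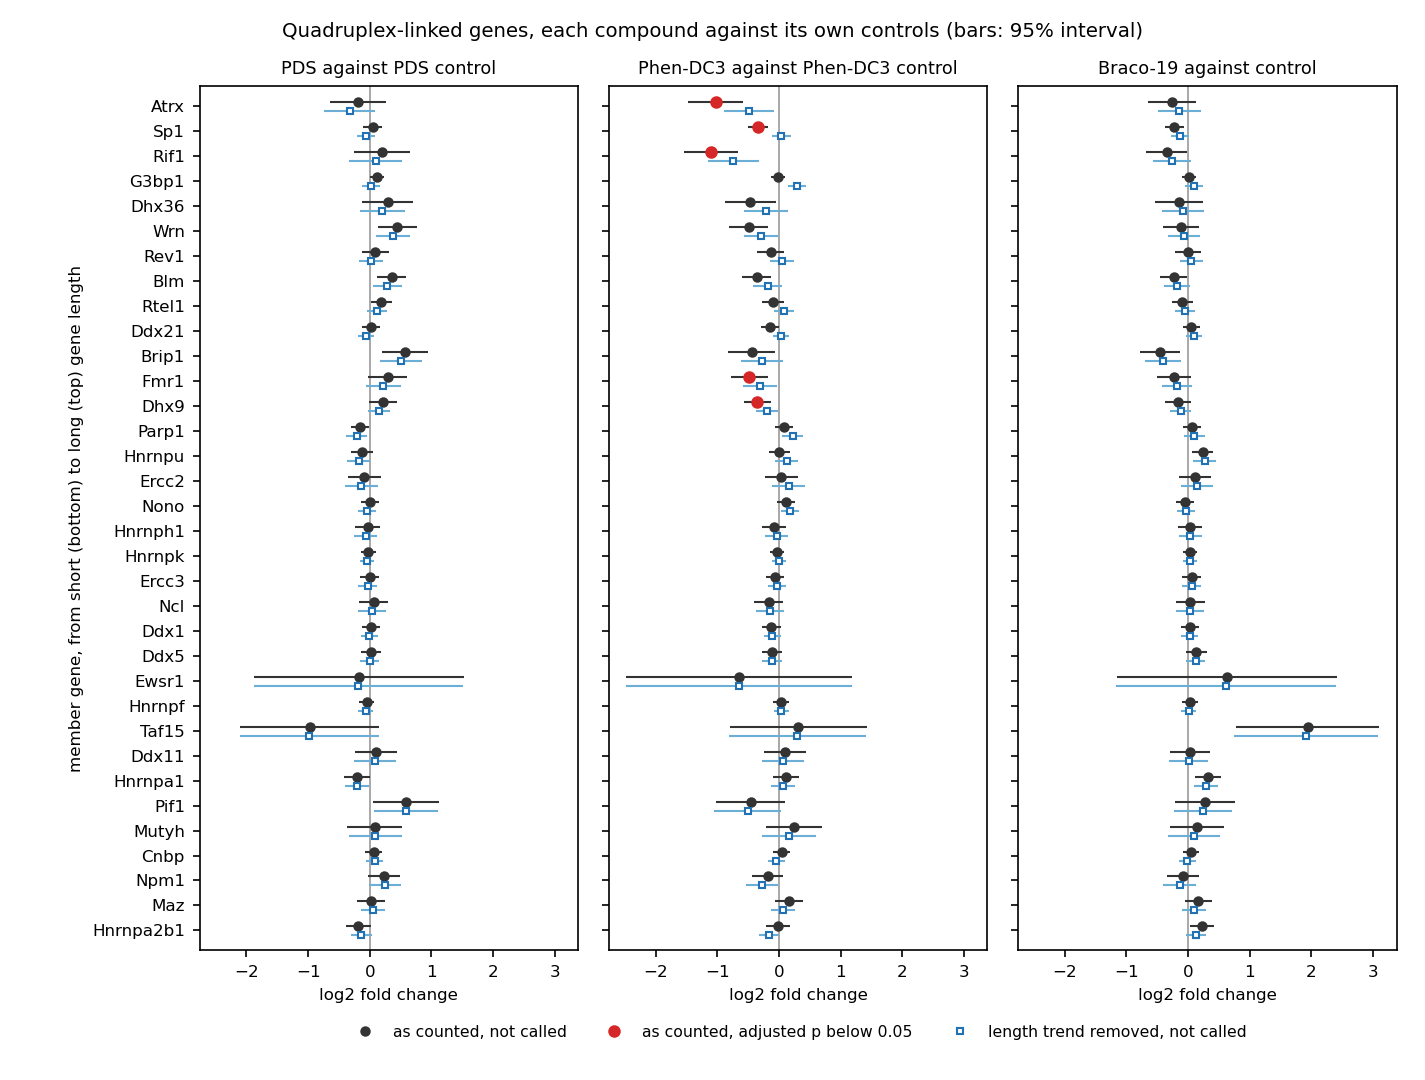
Log2 change of each member against its own controls for the 3 compounds, as counted (circles, red where edgeR's adjusted p is below 0.05) and after the length correction (squares), with bars of the 95% interval and genes ordered by length. The 5 red points (Rif1, Atrx, Sp1, Dhx9 and Fmr1) are in the Phen-DC3 comparison and lie below 0, and the short Atrx model is left out.

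With Braco-19, 0 of 35 models passed (8 at an unadjusted p under 0.05), and 0.275% of all genes did. DESeq2 called 1, Sp1, again with no share of all genes given. The medians were 0.03 over the members and 0.00 over all genes. After the length correction 0 passed (4 at an unadjusted p under 0.05; 0.317% of all genes). The groups did not overlap for 11 models, and for 28.1% of all genes.

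Taf15 had the largest difference, at 0.933, 2.97 and 1.81 CPM in the controls and at 5.27, 9.37 and 7.37 with Braco-19. Its log2 difference was 1.94 ± 0.54 (SE; edgeR adjusted p = 0.131). Taf15 was also the member with the second largest spread between replicates, and 1 Phen-DC3 control was at 0.686 CPM while the others of that group were at 5.16 and 5.78. Hnrnpa1 was at 0.32 ± 0.10 and Hnrnpu, a scaffold protein of nuclear RNA, at 0.23 ± 0.08 (edgeR adjusted p = 0.142 and 0.17). Brip1 was at -0.45 ± 0.16 (0.158), Sp1 at -0.22 ± 0.07 (0.152), Rif1 at -0.35 ± 0.16 (0.247) and Blm at -0.23 (0.246). Rif1 was at 60.7, 57.9 and 60.2 CPM in these controls and at 47.9, 46.4 and 46.2 with Braco-19, without overlap.

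The compounds were then compared with each other, as the difference between their log2 changes, each against its own controls and at doses the sources used here do not give. Between PDS and Phen-DC3, 7 of 35 models differed (20%), all with the higher value for PDS. Of all genes 20.2% differed, 12.4% in that direction. Rif1 had the largest difference, 1.29 on the log2 scale (95% interval 0.66 to 1.93; edgeR adjusted p = 0.00838). Brip1 differed by 1.02 (0.49 to 1.54; 0.0107) and Wrn by 0.93 (0.49 to 1.38; 0.00705). Fmr1 (0.77), Blm (0.72), Dhx9 (0.56) and Sp1 (0.38) followed, with edgeR adjusted p from 0.00655 to 0.0175. All 7 are longer than 4000 bases. Rif1, Fmr1 and Wrn were also higher in the Phen-DC3 controls than in the PDS controls (below). Rif1 averaged 0.90 CPM per kilobase in the Phen-DC3 controls, 0.42 with Phen-DC3 and 0.48 in the PDS controls. Fmr1 averaged 3.47, 2.49 and 2.15 and Wrn 2.94, 2.09 and 2.01 in the same order. The part of the control levels in these differences was not tested.

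Relative to genes of like length, 4 of 35 differed between PDS and Phen-DC3, when 13.3% of all genes did. They were the helicases Brip1 (0.78; edgeR adjusted p = 0.0317), Wrn (0.67; 0.0257) and Pif1 (1.10; 0.048), and the repair enzyme Parp1, which was lower (-0.44; 0.0189). Brip1 and Wrn passed in both fits. Rif1 (0.83; 0.058), Blm (0.47; 0.0517), Fmr1 (0.53; 0.062) and Dhx9 (0.34; 0.0656) missed the threshold, and Sp1 turned to -0.10 (0.533). In the same contrast 10 of 24 S phase and mitosis genes had the higher value for PDS and 0 the lower (9 and 0 after the correction), and their part in the helicase values was not tested.

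Between PDS and Braco-19, 6 members differed, 2 with the higher value for PDS and 4 with the lower, against 14% of all genes (7.28% higher and 6.75% lower). Brip1 (1.02; 95% interval 0.53 to 1.52; edgeR adjusted p = 0.00938) and Blm (0.59; 0.26 to 0.91; 0.0191) were higher with PDS. Taf15 (-2.91; -4.53 to -1.29; 0.0234), Hnrnpa1 (-0.53; 0.0212), Hnrnpa2b1 (-0.41; 0.0477) and Hnrnpu (-0.36; 0.0489) were lower. After the length correction 5 of the 6 passed, without Hnrnpa2b1 (-0.27; edgeR adjusted p = 0.112), when 14.1% of all genes did. Of the 24 S phase and mitosis genes, 12 had the higher value for PDS in this contrast and 0 the lower, with and without the correction, and their part was not tested. Without Braco-19 replicate 2 the count was 1, and it was 2 without PDS replicate 2, PDS replicate 3 or control replicate 1. It was 3 without PDS control replicate 3 or control replicate 3. The share of all genes in those fits is not given.

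Between Phen-DC3 and Braco-19, 0 members differed by edgeR (4 at an unadjusted p under 0.05; DESeq2 called 0), and 0.0494% of all genes did. After the length correction the counts were 0 of the members (5 at an unadjusted p under 0.05) and 0% of all genes. The intervals were wide. The difference was -0.75 for Rif1 (95% interval -1.30 to -0.20), -0.77 for Atrx (-1.36 to -0.18) and -1.62 for Taf15 (-3.22 to -0.02), with edgeR adjusted p of 0.394, 0.409 and 0.519. For Brip1 it was 0.01 (-0.52 to 0.54).

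The controls of Braco-19 differed from the other controls in more members than any compound did from its own controls. In the controls of Braco-19, 27 of 35 models differed from the PDS controls, 22 higher and 5 lower, but 73.3% of all genes differed too (37.7% higher and 35.6% lower). The 22 include both Atrx models. Counts of the short one lie almost wholly in the control and Braco-19 libraries, through which it passed the filter. Its call is no result about Atrx. The median log2 difference was 0.56 over the members and 0.02 over all genes. With upper quartile scaling the split was 19 higher and 8 lower, beside 34.3% and 39.5% of all genes, with the median of all genes at -0.09. Relative to genes of like length 24 differed, 17 higher and 7 lower (67.2% of all genes, 31.9% higher and 35.2% lower), with medians of 0.24 and -0.04. The 3 sets of cultures share no library, and their separate handling and the other ways in which they may differ cannot be told apart.

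Among the full models Rif1, Brip1, Atrx and Fmr1 had the largest differences. Rif1 was at 4.23, 2.47 and 3.71 CPM in the PDS controls and at 60.7, 57.9 and 60.2 in the controls of Braco-19, a 17.2-fold difference (log2 4.10 ± 0.20, SE; edgeR adjusted p = 7.38e-13). It was 2.59 on the log2 scale relative to genes of like length. Brip1 was 6.26-fold higher (log2 2.65, corrected 1.94), Fmr1 5.16-fold (2.37, corrected 1.68) and Blm 3.36-fold (1.75, corrected 1.01), and Wrn (1.65, corrected 0.87) and Pif1 (1.53, corrected 1.80) were higher as well.

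Of the 8 DNA helicases, 7 were higher and 1, Ercc3, was lower (-0.36). After the correction 5 were higher and 1 lower. Atrx was 6.01-fold higher, at 70.3, 57.2 and 59.1 CPM against 13.6, 6.48 and 11.0, but its log2 difference of 2.59 became 0.16 (edgeR adjusted p = 0.457) relative to genes of like length. Sp1 went from 0.97 to -0.65 with the correction, passing the threshold in both directions. Dhx36 went from 1.36 to 0.27 (edgeR adjusted p = 0.174), and Dhx9 from 1.39 to 0.73.

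The abundant RNA-binding members differed less. Ncl was 1.02 higher on the log2 scale (corrected 0.97), at 447, 319 and 481 CPM in the PDS controls and 770, 865 and 904 in the controls of Braco-19, without overlap. Npm1 was 0.53 higher. Of the 6 hnRNPs, Hnrnpu (0.56) and Hnrnph1 (0.27) were higher and Hnrnpa1 was lower (-0.56), while Hnrnpk (0.07) and Hnrnpf (0.00) did not pass. Taf15 (-1.51) and the paraspeckle protein Nono (-0.40) were lower, as was Maz (-0.26, which turned to 0.24 with the correction).

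In this comparison 19 of 24 tested S phase and mitosis genes were higher and 0 lower, with a median of 0.70. After the length correction 17 were higher and 4 lower, with a median of 0.69. Their summed level was 4397 to 4543 CPM in the controls of Braco-19 and 1972 to 2046 in the PDS controls. The proliferation marker Mki67 averaged 611 and 25.5 CPM in those groups (log2 4.58, corrected 2.54). The summed fibroblast and annulus list was 5869 to 7024 CPM in the controls of Braco-19 and 2911 to 3277 in those of PDS. Of its 9 tested genes 5 were higher and 2 lower, and 3 and 3 after the length correction. Col1a1 went from 1.84 to 0.71 on the log2 scale with the correction. The leukocyte list was 34.6 to 42.4 against 108 to 114 CPM, and the endothelial list averaged 10.6 against 28.8 CPM. Single genes of these lists did not move together. Of 3 tested leukocyte genes Cd14 was lower (log2 -1.69), while Cd68 (1.25) and Csf1r (2.27) were higher. Of 2 tested endothelial genes Egfl7 was lower (-1.62) and Tek higher (3.93). The part of these lists in the members' differences was not tested.

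Against the Phen-DC3 controls, the controls of Braco-19 differed in 27 of 35 models as well, 23 higher and 4 lower (69.5% of all genes, 34.9% higher and 34.6% lower), and in 24 after the correction (62.7%). The 23 again include the short Atrx model. With upper quartile scaling the split was 20 higher and 6 lower, beside 30.9% and 38.7% of all genes. Rif1 was higher by 3.19 (log2), Brip1 by 2.23, Atrx by 1.92 and Fmr1 by 1.68, and Atrx was at -0.14 after the correction. This comparison shares the control libraries with the one before, so the 2 are not independent.

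The 2 nearer control groups also differed. Between the Phen-DC3 and PDS controls 4 of 35 models passed, against 6.09% of all genes (4.5% higher and 1.59% lower). Rif1 (0.91), Fmr1 (0.69) and Wrn (0.55) were higher in the Phen-DC3 controls, and Parp1 (-0.23) was lower, with edgeR adjusted p from 0.0189 to 0.0493. After the correction 3 passed (3.3% of all genes), Fmr1 (0.56), Parp1 (-0.34) and G3bp1 (-0.30). Between these controls 2 of 24 S phase and mitosis genes were higher and 9 lower (0 and 8 after the correction), with summed levels of 1786 to 1879 CPM in the Phen-DC3 controls and 1972 to 2046 in the PDS controls. Of 9 tested fibroblast and annulus genes 4 were higher and 0 lower, and the part of both lists in the members' values was not tested. These controls are also the reference for Phen-DC3. With the 9 control libraries pooled, 0 members and 0 of all 14184 tested genes passed for Phen-DC3. Pooling gave 1 mean to control groups of which 1, the controls of Braco-19, differed from the PDS controls in 73.3% of all genes. That widens the spread, so the pooled fit cannot decide whether members changed with Phen-DC3. The count of 4 was 0 without PDS control replicate 2, Phen-DC3 control replicate 1 or Phen-DC3 control replicate 2. It was 1 without PDS control replicate 3 and 9 without Phen-DC3 control replicate 3. Shares of all genes with these libraries left out are not given.

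Replicate spread varied widely between members. The abundant Hnrnpk and G3bp1 had the smallest median SD within groups, 0.035 and 0.036 on the log2 scale, and Hnrnpk stayed between 622 and 752 CPM in all 18 libraries. Ewsr1, the FET family gene named for Ewing sarcoma, had the largest, 0.84, with 21.5, 3.06 and 3.95 CPM in the PDS controls and 7.47, 2.52 and 15.2 with PDS. Taf15 followed with 0.455, and Brip1 was next with 0.227. The 95% interval of Ewsr1 with PDS ran from -1.87 to 1.52 on the log2 scale, so a difference as large as that of Rif1 with Phen-DC3 was not detectable.

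Other proteins linked to quadruplexes, a list of 55 genes of which 53 were tested, were examined beside the members. With PDS 3 were higher, the replication protein Rpa2 (0.39), the topoisomerase Top2a (0.44) and the helicase Recql4 (0.36), and none lower, beside 8.09% of all genes called. After the length correction 2 were higher, without Recql4 (0.27; edgeR adjusted p = 0.145), and 1, Ddx17, was lower (-0.27; 0.00844). The share of all genes was then 8.62%. With Phen-DC3 7 were lower, among them the remodeller Smarca4 (-0.36), the chromatin insulator factor Ctcf (-0.30), the exonuclease Xrn1 (-0.75) and Top2a (-0.47). Of all genes 5.82% were called lower. After the length correction 0 of the list passed, beside 0.331% of all genes. With Braco-19 1 was lower, Hmgb1 (-0.75, corrected -0.77), whose reads may be shared with gene copies. It passed with and without the correction, beside 0.317% and 0.275% of all genes. The medians over the list were 0.10, -0.08 and -0.03, beside 0.02, -0.01 and 0.00 over all genes.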

How the data were processed

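RNA-seq of 18 libraries was analysed from the deposited table of raw read counts per gene, which, per the submitters' processing notes, came from CASAVA, HISAT2 and featureCounts 1.5.0-p3. The genome build, annotation release and strandedness were not stated in any source used here, so reads of Ddx5, Ercc2 and Ddx11 cannot be told apart from those of overlapping genes on the opposite strand. The members and gene lists were chosen with earlier results of these data known.

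Genes were filtered with filterByExpr, scaled by TMM and tested with edgeR 4.0.16 (R 4.3.3, quasi-likelihood, robust) in 1 model of 6 group means, with 12 residual degrees of freedom. P-values were adjusted by Benjamini-Hochberg over 14184 genes, with a threshold of 0.05. A call was made on adjusted p alone. The length correction was a loess (span 0.3) of each library's log2 CPM deviation on log2 gene length, used as offsets. Gene lengths are those of the table. The fits were tested on simulated data. Where a trend falling with length was simulated in the PDS libraries, 96.5% of uncorrected calls were false and 2.56% of corrected calls were. That trend was steeper than the whole trend with any of the 3 compounds, so its share of false calls does not carry over to these data. With Phen-DC3 the median log2 change went from 0.19 at 960 bases to -0.45 at 9293. Uncorrected calls are to be read beside the corrected values.

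All 34 members may be named. Members given in every library were those called for a compound, and the highest and lowest per length; Brip1, Blm, Wrn, Taf15, Ncl and Ewsr1 were added after their values were seen. From the other lists, up to 4 called genes with the smallest p were named. Alternatives were other scalings, no filter, DESeq2 1.42.0, fewer libraries, pooled controls and the replicate number as a block. The promoter stretch of 1 gene is not reported here.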

Additional observations from a re-analysis of the deposited data

Results flagged for a closer look

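The listed results are those in which the log2 change with one compound, against its own controls, differed from that with another by edgeR's test of the difference itself (Benjamini-Hochberg adjusted p under 0.05 over all tested genes). Between PDS and Phen-DC3, in the sense PDS minus Phen-DC3, these were Rif1 at 1.29, Brip1 at 1.02, Wrn at 0.93, Fmr1 at 0.77, Blm at 0.72, Dhx9 at 0.56 and Sp1 at 0.38. Between PDS and Braco-19, in the sense PDS minus Braco-19, these were Brip1 at 1.02, Blm at 0.59, Hnrnpu at -0.36, Hnrnpa2b1 at -0.41, Hnrnpa1 at -0.53 and Taf15 at -2.91. The shares of all genes that passed were 20.2% and 14%. Rif1, Fmr1 and Wrn also differed between the Phen-DC3 and PDS controls themselves.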

How the results depend on the processing

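Over 315 member results and 5753 alternative values, 5435 kept direction and side of the threshold, 199 lost the threshold, 82 gained it and 37 reversed. Members called with PDS numbered 1 by DESeq2, 2 with the compared groups fitted alone and 0 to 2 with a library left out. With Phen-DC3 they numbered 0 after length correction (0.331% of all genes), with the replicate block, with block and length correction, with pooled controls (0% of all genes) and with the groups alone, and 0 to 9 with a library left out. With Braco-19 they numbered 1 by DESeq2 and 4 with the groups alone. Between the Phen-DC3 and PDS controls they numbered 10 by DESeq2, 0 with the groups alone and 0 to 9 with a library left out. PDS against Phen-DC3 gave 11 by DESeq2, 4 after length correction, 1 with the replicate block and length correction and 5 to 12 with a library left out (12 without Phen-DC3 control replicate 3, 11 without Phen-DC3 replicate 3). PDS against Braco-19 gave 3 with the replicate block, 11 with the groups alone and 1 to 8 with a library left out. For DESeq2, the replicate block, the groups alone and the libraries left out, no share of all genes is given here or above. Whether those counts exceed the background under the same setting cannot be told from them.

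Same-numbered libraries correlated at -0.46 to 0.19 in their deviations, and differently numbered ones at -0.20 to 0.39. Pairing by replicate number was thus not seen, but with 3 libraries per group this check cannot settle it. Signs turned only with the length correction, without the block and then with it. With Phen-DC3 Sp1 went to 0.039 and 0.038 (-0.392 to 0.078 with a library left out), and G3bp1 ranged from -0.037 to 0.359 with a library left out. In the controls of Braco-19 against those of PDS, Cnbp went to 0.35 and 0.35, Hnrnpa2b1 to 0.50 and 0.50, Parp1 to -0.38 and -0.38, Maz to 0.24 and 0.23, Sp1 to -0.65 and -0.65, and Ercc2 to -0.11 and -0.10. Against those of Phen-DC3, Cnbp went to 0.28 and 0.28, Hnrnpa2b1 to 0.37 and 0.37, G3bp1 to -1.04 and -1.04, Parp1 to -0.040 and -0.038, Sp1 to -0.54 and -0.54, Dhx36 to -0.13 and -0.12, and Atrx to -0.14 and -0.15. In PDS against Phen-DC3, Sp1 went to -0.10 and -0.10. The cause was not tested. The short Atrx model, with no count in most libraries, is limited by depth.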
